A study of Mus musculus with 6 samples.

Results

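The 10 genes described here mark successive steps in the making of an oligodendrocyte, the cell that wraps axons in myelin. They were taken by gene name from a table of 24935 genes: Pdgfra and Cspg4 of the precursor, Olig1, Olig2, Sox10 and Nkx2-2 of the lineage as transcription factors, Gpr17, Bcas1 and Enpp6 of the committed, not yet fully mature cell, and Myrf, the factor that starts myelin gene expression. All 10 had a row, and all 10 passed the filter on low values that left 17778 genes for testing. RNA came from the left hippocampus of C57BL/6 mouse pups at P14 (postnatal day 14). In the hyperoxia group, pups breathed 85% oxygen together with their dams from P2 to P14, and in the air group pups and dams stayed in room air over the same days. No transgene or further treatment is named, pups of both sexes were used, and each group has 3 animals with 1 library each. The litter and sex of each pup are not given, so a difference between litters cannot be told apart from one between exposures. A deposited column is headed by its group and by 1, 2 or 3, a number that names a library and does not tie it to an animal. Which way the changes run is not settled. The sources used here differ in direction, since the mRNA changes that the study gives have, nearly throughout, the opposite sign to those the column names give, and exchanged column names and a comparison taken the other way cannot be told apart here. Air and hyperoxia below mean the libraries labelled so in the columns, and if these names were exchanged every higher would read lower and every sign would turn.

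Values are DESeq2-normalized counts, that is, the reads of a gene in a library divided by 1 size factor for that library. The 6 libraries held 30384052 to 38746972 reads on genes. In a principal component analysis, the first axis (52.7% of the variance) separated air from hyperoxia, and on the second (19.5%) hyperoxia library 2 stood farthest from the rest. Hippocampal neuron markers were present in every library (Rbfox3, Neurod6, Prox1, Wfs1, Grik4 and Slc17a7, together 97240 to 104267 in air and 70568 to 82021 in hyperoxia). The test described below called 4 of these 6, all as lower in hyperoxia (Rbfox3 −0.46, Neurod6 −0.75, Grik4 −0.35 and Slc17a7 −0.34 on the log2 scale). Grik4 and Slc17a7 were not called with air library 1 (adjusted p 0.11 and 0.054) or 2 (0.11 and 0.062) left out. Grik4 was also not called without air library 3 (0.06) or hyperoxia library 1 (0.088), or without the mean-variance trend of the test (0.086). After quantile normalization Slc17a7 changed by −0.11 and was not called (0.24). Choroid plexus markers were uneven (0 of 6 called), and their sum was 8171 in hyperoxia library 3 and between 457 and 1406 in the other 5 libraries. Of 3 Schwann cell markers tested, none was called. In tissue RNA such as this, fewer cells of a type and less RNA per cell cannot be told apart.

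Oligodendrocyte precursors carry the PDGF receptor alpha and the NG2 proteoglycan, divide, and persist throughout the brain. A precursor that leaves the cycle loses both, passes through a premyelinating step at which Gpr17, Bcas1 and Enpp6 are switched on, and then turns on Myrf and the genes of compact myelin. Olig1, Olig2 and Sox10 are carried through the whole sequence. In the rodent hippocampus this sequence is under way during the second postnatal week, so that P14 tissue holds all of its steps at once.

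Expressed per kilobase of annotated exon, so that genes can be compared, Olig1 was the most abundant of the 10 in air, at 2934 normalized counts per kilobase. It was followed by Bcas1 at 2377, Gpr17 at 1296, Sox10 at 901, Olig2 at 726, Pdgfra at 316, Myrf at 264, Enpp6 at 171, Nkx2-2 at 152 and Cspg4 at 115. Among neighbours in this order, the air libraries of Enpp6 (141 to 196) and Nkx2-2 (149 to 154) overlapped, and no other neighbouring pair did. In hyperoxia the first 6 places were the same, and Enpp6, Myrf, Cspg4 and Nkx2-2 followed. There Bcas1 and Gpr17 overlapped, at 1437 to 1781 and 1434 to 1492 per kilobase, and so did Sox10 with Olig2 and Enpp6 with Myrf.

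The libraries labelled hyperoxia had higher mRNA of both precursor genes and lower mRNA of Nkx2-2, Bcas1 and Myrf than those labelled air. Olig1, Olig2 and Sox10 did not pass the test, nor did Gpr17 and Enpp6, whose means were higher in hyperoxia. The log2 of the normalized count plus 1 was compared between groups in limma, as hyperoxia minus air. P-values were adjusted over all 17778 genes by the Benjamini-Hochberg method, and a gene is called at an adjusted p under 0.05. It called 5 of the 10 genes, 2 higher and 3 lower, while over all genes tested 30.5% were called, 14.9% as higher and 15.6% as lower. The groups did not overlap for 5 of the 10 (Pdgfra, Cspg4, Nkx2-2, Bcas1 and Enpp6), 3 of them higher and 2 lower, against 46.1% of all genes tested (22.3% higher and 23.8% lower). The median log2 fold change of the 10 was −0.04, and that of all genes −0.01. The count fell to 3 without hyperoxia library 1 and without air library 2, and to 3 in limma without its mean-variance trend, each time leaving Pdgfra, Cspg4 and Bcas1.

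**Figure D1:**
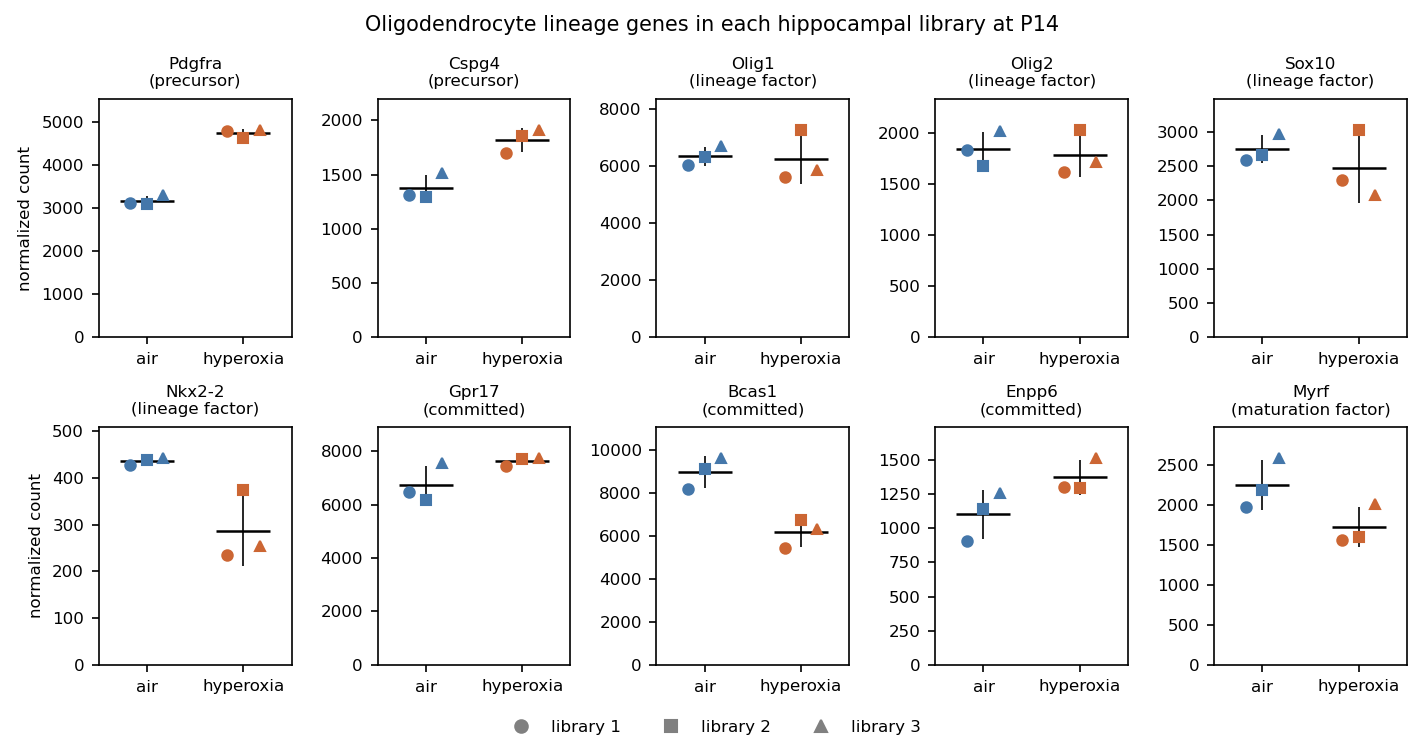
Normalized count (linear axis from 0) of each of the 10 genes in the 3 libraries labelled air (blue) and the 3 labelled hyperoxia (orange). Symbols give the library number, horizontal lines the mean and vertical lines the SD (n = 3). Pdgfra and Cspg4 were higher and Nkx2-2 and Bcas1 lower in every hyperoxia library than in any air library.

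Pdgfra (ENSMUSG00000029231.15, chromosome 5, 75152292 to 75198215, plus strand, GRCm38) encodes the receptor for PDGF-AA, the main mitogen of oligodendrocyte precursors. Its normalized count was 3119, 3084 and 3297 in the air group (libraries 1, 2 and 3, the order used throughout) and 4783, 4624 and 4805 in the hyperoxia group. The groups were far apart compared with their spread, with means of 3167 ± 114 for air and 4737 ± 98.9 for hyperoxia (SD, n = 3 each). The difference came to 0.58 on the log2 scale (SE, standard error, 0.07, limma adjusted p = 5.9e-04), a fold with a 95% interval of 1.35 to 1.66. It was called under all 16 alternative settings, with values from 0.40 to 0.61. The 0.40 came after the length and GC correction, and every other setting gave at least 0.56.

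Cspg4 (ENSMUSG00000032911.6, chromosome 9, 56865033 to 56899870, plus strand) encodes the NG2 proteoglycan on the precursor surface. It was 1316, 1296 and 1516 in the air libraries and 1699, 1853 and 1911 in the hyperoxia libraries, so that the lowest hyperoxia value lay above the highest air value. The log2 fold change came to 0.41 (SE 0.09, limma adjusted p = 0.0076), or 1.33-fold with a 95% interval of 1.16 to 1.52. It was called under all 16 alternatives, with values from 0.28 (after the length and GC correction) to 0.48. The calls without air library 1 (limma adjusted p = 0.044) or 2 (0.046) were narrow.

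Pdgfra and Cspg4 are each also made by a vascular cell, and markers of those cells were read beside them. Of 6 markers of perivascular fibroblasts, cells that also carry Pdgfra, 5 were called and all 5 were higher (Col1a1, Col1a2, Col3a1, Lum and Col6a3, with Dcn not called). Lum lost its call with any 1 air library or hyperoxia library 2 left out, and Col6a3 with air library 1 or 3 or hyperoxia library 1 left out. Their summed level was 3709 to 4743 in air and 5200 to 7976 in hyperoxia. In hyperoxia libraries 1, 2 and 3, the fibroblast sum was 7170, 7976 and 5200, and Pdgfra was 4783, 4624 and 4805. Of 6 markers of pericytes, which carry Cspg4, only Rgs5 was called, as higher (log2 fold change 0.38), and the median of the list was 0.08. The sums were 10899 to 11547 in air and 12438 to 14299 in hyperoxia, of which Rgs5 made up 6144 to 6486 and 7522 to 9037. None of these markers was at 0 in any library. The part of these cells in the higher Pdgfra and Cspg4 was not tested.

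The starts of both precursor genes are shown because these were the members that rose together. RefSeq sequence of the region before the start (GRCm38.p6) was on hand for 5 of the 10 genes. The stretches end at the RefSeq start or before the first annotated transcript base, whichever comes first, chr5:75152001-75152250 for Pdgfra (250 bases, 54.4% G or C) and chr9:56864854-56865032 for Cspg4 (179 bases, 60.3% G or C), both on the plus strand and 5′ to 3′. Capitals mark a GC box, GGGCGG on either strand.
Pdgfra: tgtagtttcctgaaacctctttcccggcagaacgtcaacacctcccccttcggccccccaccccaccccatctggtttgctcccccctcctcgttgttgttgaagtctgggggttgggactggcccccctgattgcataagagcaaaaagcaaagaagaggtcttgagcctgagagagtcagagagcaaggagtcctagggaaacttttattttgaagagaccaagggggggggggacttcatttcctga
Cspg4: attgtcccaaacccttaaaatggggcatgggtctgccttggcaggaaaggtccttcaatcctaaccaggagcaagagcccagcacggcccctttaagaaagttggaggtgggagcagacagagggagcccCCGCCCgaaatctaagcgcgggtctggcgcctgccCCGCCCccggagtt
In the 250 bases before the RefSeq start, Cspg4 had 2 GC boxes and Pdgfra none, and 32.9% of 27025 mouse promoters had at least 1. The E-box CANNTG, the core bound by proteins such as the Olig factors, occurred 1 time for Pdgfra and not for Cspg4, and in 66% of promoters. The SOX cores ACAATG (11% of promoters) and ACAAAG (16.5%) occurred in neither. The TATA box TATAAA (13%) occurred in neither as well.

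Olig1 and Olig2 are neighbours on chromosome 16 (91269772 to 91271933 and 91225457 to 91228677, both plus strand) and encode basic helix-loop-helix factors. Olig2 is needed to make the lineage and Olig1 for its later maturation. Olig1 (ENSMUSG00000046160.6) was 6030, 6306 and 6697 in the air libraries and 5628, 7267 and 5866 in the hyperoxia libraries. Olig2 (ENSMUSG00000039830.8) was 1829, 1672 and 2013 in air and 1613, 2025 and 1714 in hyperoxia. For both, the highest hyperoxia library was library 2 and the groups overlapped. Olig1 differed by −0.03 on the log2 scale (95% interval −0.25 to 0.20, limma adjusted p = 0.85) and Olig2 by −0.05 (95% interval −0.28 to 0.19, limma adjusted p = 0.76). The intervals leave room for a change of up to about 0.28 on the log2 scale in either gene, and the sign of both turned without air library 3 (0.01 and 0.02), without hyperoxia library 1 (0.04 and 0.02) and after the length and GC correction (0.12 and 0.09). The sign of Olig1 also turned without hyperoxia library 3 (0.01). The pair kept its proportion, since Olig1 exceeded Olig2 by 1.72 to 1.92 on the log2 scale of counts in air and by 1.77 to 1.84 in hyperoxia.

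Sox10 (ENSMUSG00000033006.9, chromosome 15, 79154908 to 79165240, minus strand) encodes the factor that works with Myrf on myelin genes. It was 2599, 2666 and 2980 in air and 2300, 3032 and 2076 in hyperoxia. Hyperoxia libraries 1 and 3 lay below every air library and library 2 above them all, and the log2 fold change of −0.17 (95% interval −0.46 to 0.12, limma adjusted p = 0.34) was not larger than the spread between replicates. Without hyperoxia library 2 the change was −0.33 and called (limma adjusted p = 0.0060).

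Nkx2-2 (ENSMUSG00000027434.11, chromosome 2, 147177546 to 147194243, minus strand) encodes a homeodomain factor that rises as precursors begin to differentiate and is known to repress Pdgfra. It was the least abundant of the 10 in counts, at 429, 439 and 444 in the air libraries and 234, 375 and 254 in the hyperoxia libraries. All 3 hyperoxia values were lower than the air values, with library 2 nearest to them. Its log2 fold change of −0.63 (SE 0.16, limma adjusted p = 0.016) was a level in hyperoxia 0.645 times that in air (95% interval 0.502 to 0.828). Leaving out air library 1, 2 or 3 gave adjusted p values of 0.058, 0.060 and 0.055, and leaving out hyperoxia library 1 gave 0.063, with changes between −0.65 and −0.50. In limma without the trend it was 0.052. Without hyperoxia library 2 the change was −0.84 (limma adjusted p = 1.0e-04). Its exons share 278 bases with Nkx2-2os on the other strand, which had a mean count of 15.5. All 4 lineage factors were highest in library 2 within the hyperoxia group.

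Gpr17 (ENSMUSG00000052229.5, chromosome 18, 31942997 to 31949636, minus strand) encodes a G protein-coupled receptor found on precursors that have committed to differentiate and lost again before myelination. It was 6463, 6186 and 7550 in air and 7448, 7704 and 7754 in hyperoxia. Air library 3 lay inside the narrow hyperoxia range, and the other air libraries below it. The log2 fold change was 0.19 (95% interval −0.002 to 0.38, limma adjusted p = 0.12) and no alternative of the 16 called it. A stretch of 188 exonic bases is shared with Lims2 on the other strand, which had a mean count of 722.

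Bcas1 (ENSMUSG00000013523.13, chromosome 2, 170346991 to 170427845, minus strand) marks oligodendrocytes that are starting to myelinate. It was 8179, 9114 and 9630 in the air libraries and 5424, 6723 and 6324 in the hyperoxia libraries. No hyperoxia library reached the lowest air value. The log2 fold change came to −0.55 (SE 0.10, limma adjusted p = 0.0034), a level 0.685 times that in air with a 95% interval of 0.589 to 0.796. It was called under all 16 alternatives, between −0.61 and −0.46.

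Enpp6 (ENSMUSG00000038173.15, chromosome 8, 46986887 to 47096762, plus strand) encodes a choline phosphodiesterase and marks newly formed oligodendrocytes. It was 903, 1140 and 1256 in air and 1303, 1293 and 1514 in hyperoxia, without overlap but with air library 3 close to hyperoxia libraries 1 and 2. Its log2 fold change of 0.33 (SE 0.12, limma adjusted p = 0.071) missed the threshold. It passed with DESeq2 on the recovered reads (adjusted p = 0.043) and in limma without air library 3 (0.047) or without hyperoxia library 2 (0.035). The length and GC correction left it at 0.165 (0.24), and leaving out air library 1 at 0.19 (0.25). The level of Enpp6 relative to Bcas1 within a library was −3.18 to −2.94 on the log2 scale in air and −2.38 to −2.06 in hyperoxia. That of Bcas1 relative to Gpr17 was 0.34 to 0.56 in air and −0.46 to −0.20 in hyperoxia. Bcas1 had already been seen to be lower and the means of Enpp6 and Gpr17 higher, so these ratios restate those changes and are no test.

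Myrf (ENSMUSG00000036098.15, chromosome 19, 10208272 to 10240748, minus strand) encodes a membrane-anchored factor that cleaves itself, enters the nucleus and switches on myelin genes. It was 1983, 2191 and 2596 in air and 1569, 1603 and 2011 in hyperoxia. The groups met at hyperoxia library 3, which lay just above air library 1. The log2 fold change of −0.39 (SE 0.12, limma adjusted p = 0.039) passed the threshold narrowly. It was no longer called without air library 2 (−0.40, adjusted p = 0.098), air library 3 (−0.28, 0.14) and without hyperoxia library 1 (−0.32, 0.14), and also in limma without the trend (−0.39, 0.10). Relative to Sox10 within a library, Myrf overlapped between the groups, at −0.39 to −0.20 on the log2 scale in air and −0.92 to −0.05 in hyperoxia.

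**Figure D2:**
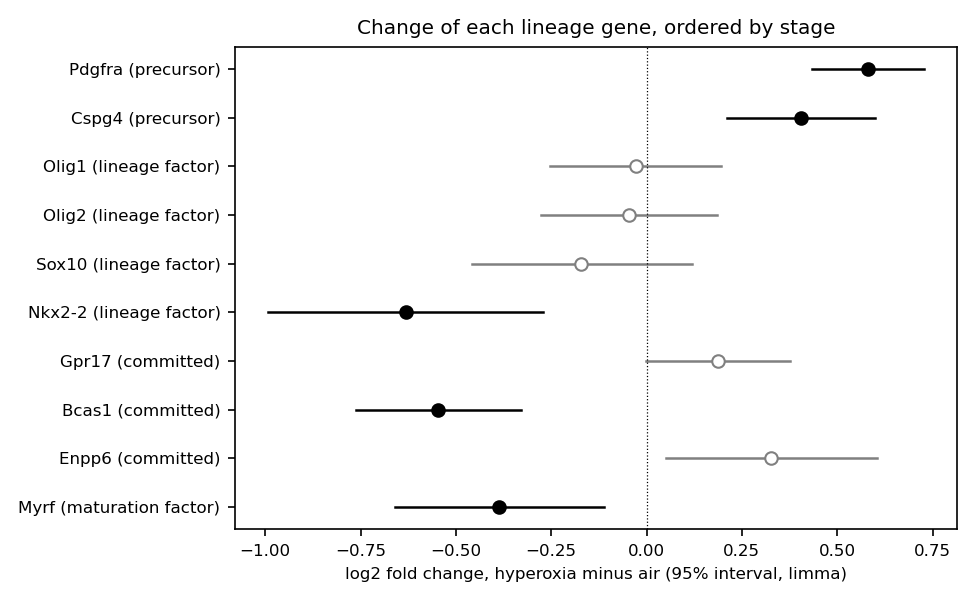
Log2 fold change (hyperoxia minus air, limma) of the 10 genes in the order of the lineage. Lines are 95% intervals, filled points passed the test and open points did not. Precursor genes lie to the right of 0, and Nkx2-2, Bcas1 and Myrf to the left, with intervals that leave out 0. The interval of Enpp6, an open point, also leaves out 0, since intervals are not adjusted over genes.

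The levels of the other genes can also be set against the precursor genes of the same library. Pdgfra and Cspg4, which had already been seen to be higher in hyperoxia, are then the reference (0.49 in the mean log2 difference), so that a stage that did not change itself also comes out lower. The mean of the 3 committed genes differed between groups by only −0.01, that of the lineage factors by −0.22 and Myrf by −0.39. The committed mean joins changes in both directions, Bcas1 at −0.55, Enpp6 at 0.33 and Gpr17 at 0.19. Levels set against the precursor genes within a library do not depend on the size factor, and they are given as description without a test. The mean log2 count of the 3 committed genes exceeded that of Pdgfra and Cspg4 by 0.84 to 1.01 in air and by 0.40 to 0.47 in hyperoxia. The 4 lineage factors were below the precursor genes by a nearly constant amount in air (−0.11, −0.09 and −0.12) and lay between −0.997 and −0.53 in hyperoxia, where library 2 stood nearest to air. Myrf was −0.03, 0.13 and 0.22 relative to the precursor genes in air and −0.86, −0.87 and −0.59 in hyperoxia. Bcas1 relative to Pdgfra stood at 1.39, 1.56 and 1.55 in air and 0.18, 0.54 and 0.40 in hyperoxia. In air, library 3 was the highest of its group for all 10 genes, and library 1 was the lowest for 6 of them.

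**Figure D3:**
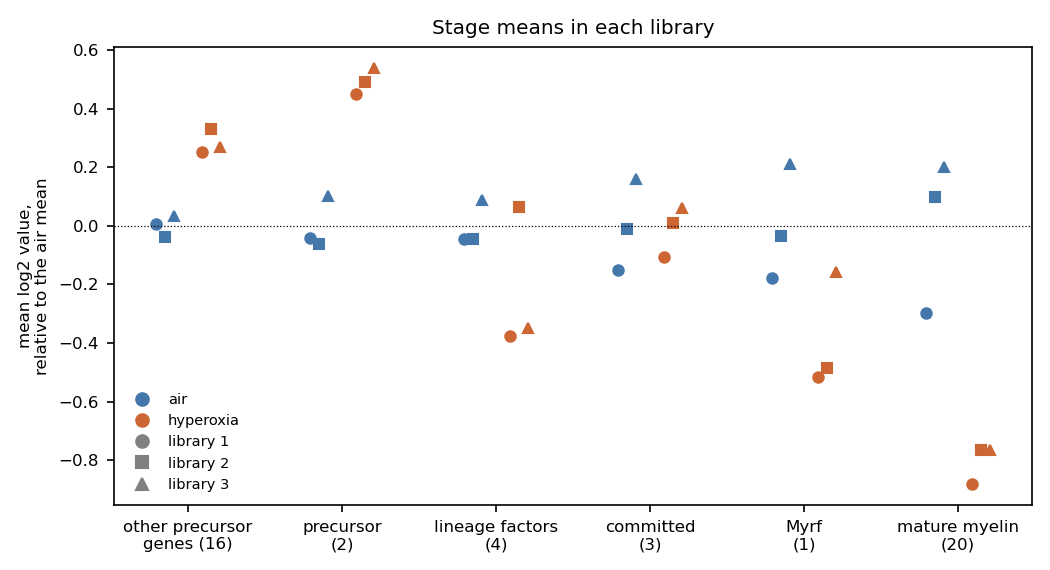
Mean log2 normalized count of each stage in each library, relative to the mean of the air libraries (vertical axis, log2). Numbers in parentheses are genes per stage, blue is air and orange is hyperoxia, and symbols give the library number. The precursor points lie at 0.45 to 0.54 in hyperoxia, the committed points overlap those of air, and the mature myelin points lie at −0.88 to −0.76. The committed mean joins a lower Bcas1 with higher means of Gpr17 and Enpp6.

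Among 16 other genes known from precursors, 7 of the 16 tested were called, 6 as higher and 1 as lower (43.8%, against 30.5% of all genes), and the median log2 fold change was 0.24. Sox6, a transcription factor that holds precursors in the undifferentiated state, had means of 534 ± 70.2 in air and 1105 ± 107 with hyperoxia (SD, n = 3 each), a log2 fold change of 1.05 (limma adjusted p = 5.1e-04). Lhfpl3 changed by 0.85 (limma adjusted p = 9.6e-04), and Pcdh15, a protocadherin, by 0.77 (0.0016). These 3 were called under all 16 alternatives, with lowest values of 0.79 for Sox6, 0.73 for Lhfpl3 and 0.48 for Pcdh15. Several genes of this list, Sox6 and Pcdh15 among them, are also made by neurons. Of 6 genes of dividing cells, 4 were called, all as higher (Mki67, Top2a, Cdk1 and Birc5, while Ccnb1 and Ccna2 were not called). Cdk1 and Birc5 lost their calls without air library 2 (0.15 and 0.067) or 3 (0.099 and 0.12) and without hyperoxia library 1 (0.073 and 0.081) or 3 (0.052 and 0.076). Without air library 1, Top2a (0.055) and Birc5 (0.064) were not called, so that 2 of the 6 were called in each of these cases, and without hyperoxia library 2 Cdk1 was not called (0.074). Their summed level was 858 to 950 in air and 1198 to 1668 in hyperoxia, and which cells divided was not tested.

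Among 13 other genes known from committed and newly formed cells, 12 were tested and 1 was not analysed here. The test called 5 (41.7%, against 30.5% of all genes), 4 of them higher and 1 lower, with a median of 0.08. Tcf7l2, a Wnt pathway factor used at the start of differentiation, was 384, 372 and 528 in air and 514, 1085 and 659 in hyperoxia, a log2 fold change of 0.76 (limma adjusted p = 0.039). Its groups overlapped, and leaving out air library 1 or 2 ended the call (0.14 each). Tcf7l2 is strongly expressed in the thalamus too, and of 6 thalamic markers 2 were called, Slc17a6 (1.72) and Ramp3 (1.36), both as higher. The other 4 ranged from −0.51 (Lhx9) to 0.32 (Lef1), and the median of the list was 0.05. The sums were 3046 to 3411 in air and 4029 to 5037 in hyperoxia, of which Slc17a6 made up 555 to 630 and 1675 to 2186. Ramp3 was not called without air library 2 (0.068) or 3 (0.057) or hyperoxia library 1 (0.070). The part of thalamic tissue in the Tcf7l2 value was not tested. Itpr2, a calcium release channel of premyelinating cells, changed by 0.39 (limma adjusted p = 0.019) and Rras2 by 0.31 (0.015), and both lost the call without air library 1 (0.090 and 0.074) or 2 (0.077 and 0.059). After the length and GC correction Itpr2 changed by 0.12 (0.23). Snx22 changed by −0.35 (limma adjusted p = 0.047) and shares 825 exonic bases with the more abundant Ppib on the other strand. It was not called when air library 2 (0.15) or 3 (0.17), or hyperoxia library 1 (0.12) or 3 (0.074), was left out. The count of this list was 3 without hyperoxia library 1 or 3, 1 without air library 1, and 0 in limma without air library 2, where 4 genes had an unadjusted p under 0.05. With all 6 libraries, edgeR called 5 and DESeq2 3.

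Of 8 genes known to restrain differentiation, 6 were called (75%, against 30.5% of all genes), 4 higher and 2 lower, with a median of 0.35. Which cells of the tissue made these mRNAs was not tested. Sox5, the partner of Sox6, changed by 0.83 (limma adjusted p = 0.0013), and Hes1, an effector of Notch signalling, by 0.70 (0.0038). Notch1 itself changed by 0.44 (limma adjusted p = 0.026), a call that was lost without air library 1, 2 or 3 (0.070, 0.11 and 0.054) and without hyperoxia library 1 (0.079) or 3 (0.054). Gpr37, a receptor of differentiating cells that slows their myelination, changed by −0.69 (limma adjusted p = 0.0017), and Id4 by −0.35 (0.013), which was not called without air library 2 (0.060) or 3 (0.054) or hyperoxia library 1 (0.050). Of 10 genes known to promote differentiation, 3 were called, 2 higher and 1 lower, a share of 30% that is near the 30.5% of all genes, with a median of 0.12. Sox8, the close relative of Sox10, changed by 0.39 (limma adjusted p = 0.0086), with 329 exonic bases in common with a gene on the other strand. Zfp24 changed by 0.29 (limma adjusted p = 0.019), but only by 0.07 (0.48) after the length and GC correction, and its call was also lost without air library 1 (0.091) or 3 (0.063) or hyperoxia library 1 (0.064). Nkx6-2, a factor of maturing oligodendrocytes, was 229, 309 and 359 in air and 127, 140 and 136 in hyperoxia, a log2 fold change of −1.12 (limma adjusted p = 0.0016) called under all 16 alternatives. It shares 246 exonic bases with Inpp5a. Without hyperoxia library 2 the count of the promoting list was 5.

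Of 16 growth factors and receptors of the lineage, 15 were tested and Cntf was below the filter. The test called 7 (46.7%, against 30.5% of all genes), 4 higher and 3 lower, with a median of 0.10. Pdgfa, the ligand of the receptor encoded by Pdgfra, was 1599, 1577 and 1552 in air and 1099, 1664 and 1259 in hyperoxia, a log2 fold change of −0.26 (limma adjusted p = 0.17) with hyperoxia library 2 above every air library and libraries 1 and 3 below. Without hyperoxia library 2 it was −0.42 and called (limma adjusted p = 0.0012). Pdgfa was singled out after its values were seen. Erbb4, a neuregulin receptor also found on interneurons, changed by 0.85 (limma adjusted p = 0.0017), Igf1, a survival factor of the lineage, by 0.58 (0.0021) and Fgfr3 by 0.45 (0.0029). After the length and GC correction Igf1 changed by 0.26 (0.062). Microglia also make Igf1, and of 5 microglial markers 2 were called, both as higher, Cx3cr1 among them, with sums of 8752 to 8825 in air and 9839 to 10592 in hyperoxia, whose part in the Igf1 value was not tested. In the other direction, Erbb3, the neuregulin receptor of the lineage itself, was 357, 576 and 619 in air and 288, 260 and 313 in hyperoxia, a change of −0.81 (limma adjusted p = 0.011), not called without air library 2 (0.056). S1pr5, a sphingosine phosphate receptor of oligodendrocytes, changed by −0.58 (limma adjusted p = 0.018) and Fgfr1 by −0.56 (0.0039). The S1pr5 call was lost without air library 2 (0.086) or 3 (0.074) or hyperoxia library 1 (0.072). The count of this list was 4 without air library 2.

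At the far end of the lineage, 19 of 20 mature myelin genes were called (95%, against 30.5% of all genes). All 19 were lower in the libraries labelled hyperoxia, with a median of −0.72. Mal, a myelin vesicle protein, was 7566 ± 2044 in air and 2290 ± 223 with hyperoxia (SD, n = 3 each), a log2 fold change of −1.69 (limma adjusted p = 4.9e-04), followed by Gjb1 (−1.22) and Hapln2 (−1.16). Cnp, the gene not called, changed by −0.30 (limma adjusted p = 0.12) and was chosen here after its value was seen. Air library 1 was the lowest air library for all 20 genes, and the mean log2 count of the list relative to the precursor genes was −0.10, 0.31 and 0.25 in air and −1.18, −1.10 and −1.15 in hyperoxia.

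**Figure D4:**
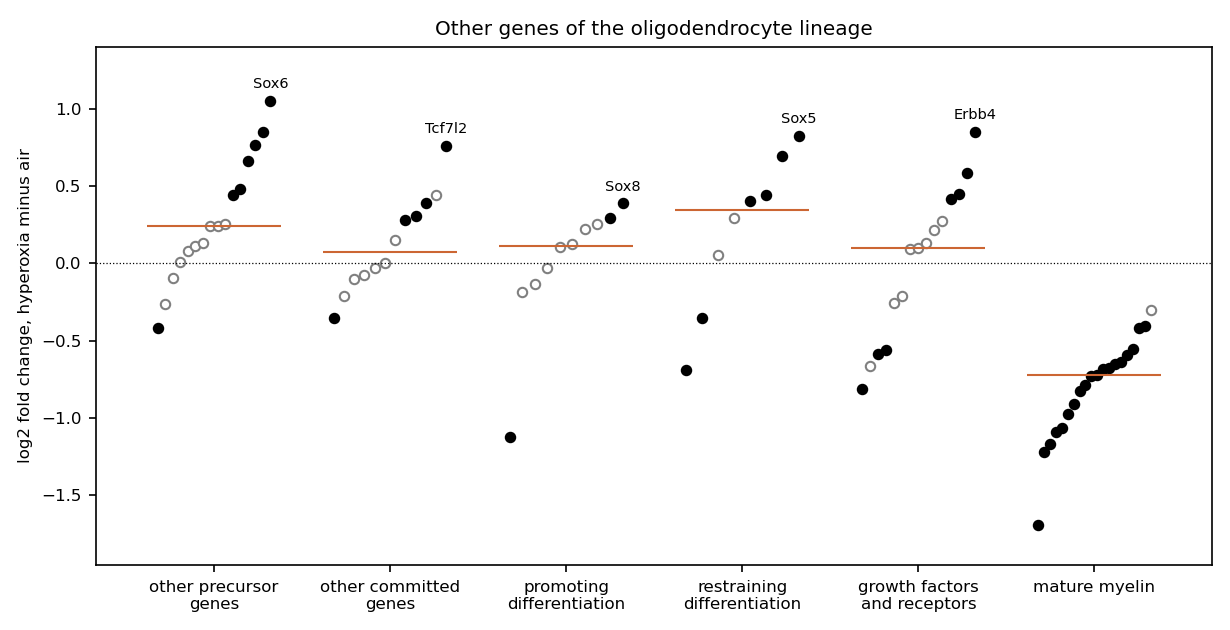
Log2 fold change (hyperoxia minus air) of each tested gene of 6 further lists, sorted within a list. Filled points passed the limma test, open points did not, and orange lines are medians. Mature myelin genes all lie below 0, and the other lists hold changes in both directions.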

How the data were processed

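mRNA of 6 left hippocampi was polyA-selected, made into strand-specific libraries and read as 75-base pairs on an Illumina NextSeq 500. The submitters' processing notes name FastQC, STAR 2.5.3a, HTSeq and DESeq2. For the genome build, annotation and strand setting of the counting, nothing was given in the sources used here. The authors deposited a signal per gene and library, the read count divided by 1 DESeq2 size factor. A second table holds only the authors' fold changes and p-values and was not used. Whole reads were recovered for 100% of values in each library (tolerance 0.01). Reads of a replicate pair differed beyond sampling noise (chi-square per gene 6.51 to 47.2). The 10 genes had 263 to 9380 reads per library.

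The comparison was fitted with limma 3.58.1 (R 4.3.3, mean-variance trend, log2 of value plus 1, mean of at least 10). Exact permutation of 3 against 3 libraries has a smallest two-sided p of 0.1 for 1 gene. The fit was repeated with a pseudocount of 0.5 or 5, unfiltered, with a minimum mean of 50, with quantile and TMM scaling, no trend, edgeR 4.0.16, DESeq2 1.42.0, removal of length and GC trends (mgcv 1.9.3), and each library left out. Positions and exon lengths came from GENCODE M21 on GRCm38, which held 99.7% of gene identifiers. The limma, edgeR and DESeq2 fits, both scalings and the trend removal were tested on simulated counts.

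The 10 genes and all lists were chosen with earlier results of these data known. By rule, the text names all 10 genes and, of each further lineage list, up to 3 called genes with the largest rise and up to 3 with the largest fall. Marker lists are given by sums and by their called members. Some listed genes are not reported here by name. Groups and directions follow the deposited column names. All p-values measure only the spread between these samples.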

Additional observations from a re-analysis of the deposited data

How the results depend on the processing

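Of the 16 alternatives, all called Pdgfra, Cspg4 and Bcas1 in their direction, and none called Gpr17, Olig1 or Olig2. The number of the 10 genes called was 3 in limma without the trend and 3 to 7 with 1 library left out, 7 being the count without hyperoxia library 2. Without the trend, Nkx2-2 (−0.63) and Myrf (−0.39) lost their calls, and DESeq2 called Enpp6 (0.33). With 1 library left out, the log2 fold change was −0.84 to −0.50 for Nkx2-2, −0.50 to −0.28 for Myrf, 0.19 to 0.43 for Enpp6, −0.328 to −0.055 for Sox10, −0.142 to 0.043 for Olig1 and −0.14 to 0.024 for Olig2. Olig1 turned to 0.002 under quantile normalization and to 0.12 after the length and GC correction, and Olig2 to 0.092 after the latter. The other committed genes called numbered 2 without the trend, 3 with DESeq2, 2 after the length and GC correction and 0 to 7 with 1 library left out. Those ranges were 2 to 5 for promoting genes and 4 to 8 for growth factors and receptors. The counts of the other precursor, restraining and mature myelin genes stayed within 1.5 times of the main count under every alternative. The cause of these shifts was not tested. No paired analysis was possible because the labels number the animals 1 to 6 without a pairing and the column numbers only name libraries.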
